A study of Homo sapiens with 38 samples.

Results

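The genes described here encode the nuclear-coded subunits of the mitochondrial respiratory chain and the ATP synthase. They were chosen by symbol in the platform annotation, as genes named NDUF followed by A, B, C, S or V and a digit, SDHA to SDHD, UQCR, CYC1, COX4 to COX8 followed by A, B or C, and ATP5. For each gene the probe set with the highest mean signal was used. 80 symbols matched, of which 5 were pseudogenes or antisense or divergent transcripts and were not counted. The remaining 75 genes, of 19775 with a probe set of 1 symbol, comprised 32 of complex I, 3 of complex II, 7 of complex III, 15 of complex IV and 18 of complex V. A filter on low signal passed 69 of them, among 11421 genes tested. ATP5MF and the complex IV genes COX6A2, COX6B2, COX7A1, COX7B2 and COX8C did not pass. ATP5MF had only 1 probe set of 1 symbol, with a mean of 5.65. SDHB was not among the genes counted. NDUFS8, NDUFS5, NDUFC2 and UQCRH, found only on probe sets with several symbols, were not counted either. The group is therefore not a full list of the subunits.

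Complex I takes electrons from NADH, complex II takes them from succinate, and both hand them to ubiquinone. Complex III passes them to cytochrome c and complex IV passes them to oxygen, while complex V uses the resulting proton gradient to make ATP. Complexes I, III, IV and V combine subunits coded in the nucleus with subunits coded in mitochondrial DNA (mtDNA), whereas all subunits of complex II are coded in the nucleus.

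The study asked how mitochondrial function bears on the unfolded protein response, the adaptive response of the endoplasmic reticulum to misfolded proteins, and measured RNA on 38 Affymetrix arrays, 26 of treated and 12 of control cultures. The cells were HT-1080, a human fibrosarcoma line, HT-29, a human colorectal adenocarcinoma line, and a rho0 derivative of each that lacks mtDNA. How the rho0 cells were made, and whether each is a single clone, is not given in the sources used here. The stresses were 2-deoxyglucose (2DG, a glucose analogue that blocks glycolysis and glycosylation), glucose starvation (GS) and tunicamycin (TM, which blocks N-glycosylation).

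HT-1080 cells with mtDNA received 2DG together with metformin (Met, 10 mM), buformin (Bu, 300 µM), phenformin (Phen, 100 µM), rotenone (Rot, 100 nM), antimycin A (AA, 10 ng/ml) or versipelostatin (VST, 3 µM), with 1 array each. They received GS with rotenone, antimycin A or versipelostatin at the same doses, and TM with rotenone or antimycin A. Met, Bu and Phen are biguanides, which inhibit complex I as rotenone does, antimycin A inhibits complex III, and versipelostatin is a microbial macrocyclic compound. Stress alone was measured in HT-1080 on 3 arrays for 2DG, 2 for GS and 1 for TM. HT-1080 rho0 cells received 2DG, GS or TM alone, 1 array each. HT-29 cells received GS with versipelostatin on 1 array and GS alone on 3, and HT-29 rho0 cells received GS alone on 1. Untreated controls numbered 2 for HT-1080 rho0, 6 for HT-1080, 1 for HT-29 rho0 and 3 for HT-29. Exposure lasted 18 h, except 14 h for HT-29 rho0 with GS and for replicate 3 of HT-29 with GS. Samples marked S included floating cells: GS with antimycin A, a further array of GS with rotenone, and rho0 HT-1080 with GS. Every compound was given together with a stress. The labels used here hold no dose for 2DG or TM.

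The labels name 1 control for each treated culture, called its own control below. Values are scaled signals, in units where the trimmed mean of every array is 119, and changes are differences of log2(signal + 5% of that mean). The summed signal of 10 mtDNA-coded probe sets was 31.3 to 34.0 in HT-1080 rho0 controls, against 46904 to 66265 in HT-1080 controls, and 22.6 in the HT-29 rho0 control, against 59617 to 69921 in HT-29 controls. The 10 colon epithelial markers fixed for the report summed to 17505 and above in HT-29 and HT-29 rho0 controls and to at most 675 in HT-1080 and HT-1080 rho0 controls, although CDX1 and CDX2 were near background in HT-29. The 10 mesenchymal markers summed to at least 14344 in the HT-1080 and HT-1080 rho0 controls and to at most 455 in those of HT-29 and HT-29 rho0. Before rescaling, the 14 cultures that got 2DG or GS plus a compound, or as rho0 cells, had trimmed means of 89.5 to 102. The 8 cultures given 2DG or GS alone had 122 to 131, and they were 110 to 117 on the 3 rho0 controls and 124 to 136 on the 9 parental controls. The choice of scaling therefore moves many values below, and both scalings are given where they differ.

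The promoters of 4 genes that recur below are shown, as DNA from 250 bases before to 50 after the RefSeq transcription start (GRCh38.p14), to show how they differ in letters known from respiratory gene promoters. Capitals mark letters of the transcription factor NRF1 (nuclear respiratory factor 1), which binds GCGCA followed by its reverse complement. A relaxed NRF1 form, GCGCA and GCGC with any 1 base between them, was added to the search after the sequences had been seen and is capitalised too. The genes are COX7A2L and SDHA, which moved the same way on all 26 treated arrays, NDUFB10, which fell in all 3 replicated comparisons of stress alone, and NDUFB4, which was lower in HT-1080 rho0 controls. NDUFV2, not shown, also fell in those 3 comparisons.
COX7A2L, chr2:42368908-42369207, minus strand: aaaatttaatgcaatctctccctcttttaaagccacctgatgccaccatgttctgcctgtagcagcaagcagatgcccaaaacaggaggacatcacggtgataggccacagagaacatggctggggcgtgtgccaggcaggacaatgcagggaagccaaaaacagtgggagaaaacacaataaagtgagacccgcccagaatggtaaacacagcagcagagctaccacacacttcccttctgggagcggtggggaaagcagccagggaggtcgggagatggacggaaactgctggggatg
SDHA, chr5:218070-218369, plus strand: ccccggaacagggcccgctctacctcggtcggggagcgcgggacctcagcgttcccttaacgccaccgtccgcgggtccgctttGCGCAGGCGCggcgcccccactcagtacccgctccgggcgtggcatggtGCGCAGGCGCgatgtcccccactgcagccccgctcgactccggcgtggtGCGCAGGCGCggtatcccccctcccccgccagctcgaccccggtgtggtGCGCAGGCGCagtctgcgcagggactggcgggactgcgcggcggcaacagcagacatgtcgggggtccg
NDUFB10, chr16:1959288-1959587, plus strand: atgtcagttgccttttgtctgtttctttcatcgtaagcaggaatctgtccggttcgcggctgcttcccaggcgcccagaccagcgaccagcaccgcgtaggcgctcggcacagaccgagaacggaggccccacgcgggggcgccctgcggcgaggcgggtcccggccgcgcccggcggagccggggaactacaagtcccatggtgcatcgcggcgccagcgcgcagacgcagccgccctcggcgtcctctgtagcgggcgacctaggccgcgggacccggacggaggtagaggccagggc
NDUFB4, chr3:120596086-120596385, plus strand: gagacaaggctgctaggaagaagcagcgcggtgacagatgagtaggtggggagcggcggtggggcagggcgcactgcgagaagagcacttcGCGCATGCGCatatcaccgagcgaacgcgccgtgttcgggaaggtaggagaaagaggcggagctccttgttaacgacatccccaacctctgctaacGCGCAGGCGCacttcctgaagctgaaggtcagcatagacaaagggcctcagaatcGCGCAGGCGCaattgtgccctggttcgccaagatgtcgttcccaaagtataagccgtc

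The SDHA window held 4 copies of GCGCAGGCGC, at -166, -117, -68 and -19 from the start. The NDUFB4 window held the full NRF1 letters at -159 and GCGCAGGCGC at -63 and -8. The COX7A2L window shown (1 of 2 listed for the gene) and the NDUFB10 window held none of the letters searched. A promoter was listed for 64 of the 75 genes, and both strands were searched. The full NRF1 letters were in 4 of the 64 (6.25%; ATP5F1C, NDUFA8, NDUFB4 and SDHD), against 1.52% of 27305 genes with a promoter, and the relaxed form, which includes them, in 16 (25%), against 6.98%. The ETS letters CCGGAAG, bound by GABP among others, were in 18 (28.1%), against 12.2% of all genes, and the YY1 letters AAGATGGCG in 8 (12.5%), against 2.14%. The ERR letters TCAAGGTCA were in 1 (1.56%; SDHD), against 0.432% of all genes. The amino acid response letters TGATGNAA were in 2 (3.12%; NDUFA5 and NDUFS6), against 4.46%. The endoplasmic reticulum stress element, CCAAT and CCACG with 9 bases between them, was in none of the 64, against 0.0916% of all genes, and its CCAAT part alone was in 24 (37.5%), against 39.7%. A match describes the letters only.

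Over all 38 arrays, the genes that passed had mean scaled signals from 316 (NDUFA7) to 7760 (ATP5MK), and probe sets differ in brightness, so genes are not ranked against each other. Of the complex IV genes with tissue-specific forms, COX6A1, COX6B1, COX7A2, COX7B and COX8A had clear signals in every control group, while their heart, muscle or testis forms were near the bottom of the scale. COX7A2 averaged 4015 ± 534 in HT-1080 rho0 (SD, n = 2), 2909 ± 93.7 in HT-1080 (SD, n = 6), 4039 in the HT-29 rho0 control and 3317 ± 463 in HT-29 (SD, n = 3). Its heart and muscle form COX7A1 was at 9.53 or below as a mean in each of the 4 groups. All 3 genes for subunit c, the rotating ring of the ATP synthase, were measured. ATP5MC1 averaged 1390 ± 335 in HT-1080 rho0, against 1571 ± 252 in HT-1080, and ATP5MC3 averaged 3601 ± 345 in HT-1080 rho0, against 4070 ± 252 in HT-1080 (SD, n = 2 and 6). Neither gene passed the test between these groups.

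Summarised by complex, HT-1080 rho0 and parental controls overlapped for complexes I, II, III and IV. The median signal of complex I was 1432 and 1424 in the HT-1080 rho0 controls, against 1391 to 1706 in the 6 HT-1080 controls. That of complex IV was 3314 and 3811 in the rho0 controls, against 2837 to 3408. For complex V it was 3547 and 3845 in the rho0 controls, just under the 3848 to 4351 of the parental controls. The 3 complex II genes had a median of 849.9 and 918 in the rho0 controls, against 720.2 to 903, and the complex III median was 2676 and 2871, against 2120 to 2978.

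The first comparison asks whether cells without mtDNA express the nuclear-coded subunits at another level. Between HT-1080 rho0 and HT-1080 controls, 3 of the 69 genes were higher and 7 lower (limma, Benjamini-Hochberg adjusted p under 0.05, as throughout), where 13.1% of all tested genes were called in either direction. By direction the background was 6.15% higher and 6.96% lower. The number called among the 69 was thus near the share over all genes. The median difference was 0.01 for the 69 genes and 0.02 for all genes. All 3 higher genes belonged to complex IV. 5 of the 7 lower genes were accessory subunits of complex I, and 1 each belonged to complexes IV and V. None of the 3 complex II genes and none of the 7 complex III genes passed the test.

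The steepest differences were in complex I accessory subunits. NDUFC1, a small membrane arm subunit, had 1609.5 and 1729 in HT-1080 rho0, against 2879.8 to 3403 (median 3166) in HT-1080, a log2 difference of -0.91 (SE 0.10, adjusted p = 8.74e-05). Both rho0 arrays lay below all 6 controls. NDUFA1, another membrane arm subunit, had 1687 and 1309.5 in rho0, against 2123 to 3372 (log2 difference -0.89, SE 0.18, adjusted p = 0.00481). NDUFB11, also of the membrane arm, had 845 and 809, against 1207 to 1373 (log2 difference -0.62, SE 0.10, adjusted p = 0.00114). Again the groups did not overlap. NDUFB4 (-0.52, SE 0.09, adjusted p = 0.00202) and NDUFA6, a matrix-side subunit of the LYR family (-0.33, SE 0.09, adjusted p = 0.0342), were lower by less.

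Complex IV was split. COX6C had 3989 and 4338 in HT-1080 rho0, against 2638 to 3229 in HT-1080 (log2 difference 0.51, SE 0.09, adjusted p = 0.00266). COX7A2, which sits where complex IV meets its partners, had 3637 and 4392, against 2751 to 3016 (0.46, SE 0.11, adjusted p = 0.0115). COX7A2L, known for joining complex IV to complex III, had 1495 and 1840.0, against 1014 to 1412 (0.48, SE 0.14, adjusted p = 0.0318). For these 3 genes both rho0 arrays lay above all 6 controls. COX7B, by contrast, had 2003 and 2173 in rho0, against 3009 to 3679.7 (-0.67, SE 0.12, adjusted p = 0.0033). In complex V, ATP5MJ, a small membrane subunit, had 2946 and 2929.5 in rho0, against 3548 to 4184 (-0.38, SE 0.10, adjusted p = 0.0209). Without 1 rho0 array the number of called genes was 5 (2 higher, 3 lower, without replicate 1) or 4 (all lower, without replicate 2), against 10 with both. As deposited, without rescaling, 1 was higher and 19 lower, where 3.22% of all genes were higher and 14.7% lower. The medians were then -0.17 for the 69 genes and -0.15 for all genes. After quantile normalization 7 were higher and 7 lower, where 6.53% of all genes were higher and 7.58% lower.

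Several of these genes lie on chromosomes whose genes were lower as a whole in HT-1080 rho0. Of 373 tested genes on the X chromosome, 115 (30.8%) were lower in HT-1080 rho0 than in HT-1080, with a median log2 difference of -0.47. NDUFA1, NDUFB11 and COX7B are the 3 genes of the group on it. Chromosome 4, which holds NDUFC1, had a median of -0.36, with 113 of 412 genes lower, and chromosome 14, which holds ATP5MJ, a median of -0.17. With each chromosome's median taken off, an alternative chosen after seeing the data, 5 genes were called. COX6C (0.37, adjusted p = 0.015) and COX7A2L (0.46, adjusted p = 0.0406) were higher, and NDUFC1 (-0.55, adjusted p = 0.00225), NDUFA6 (-0.44, adjusted p = 0.0135) and NDUFB4 (-0.37, adjusted p = 0.0157) were lower. Whether the rho0 lines differ from the parental lines in chromosome number was not tested, and in such cultures a difference made by mtDNA loss and one made by the lines' separate growth cannot be told apart.

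**Figure D1:**
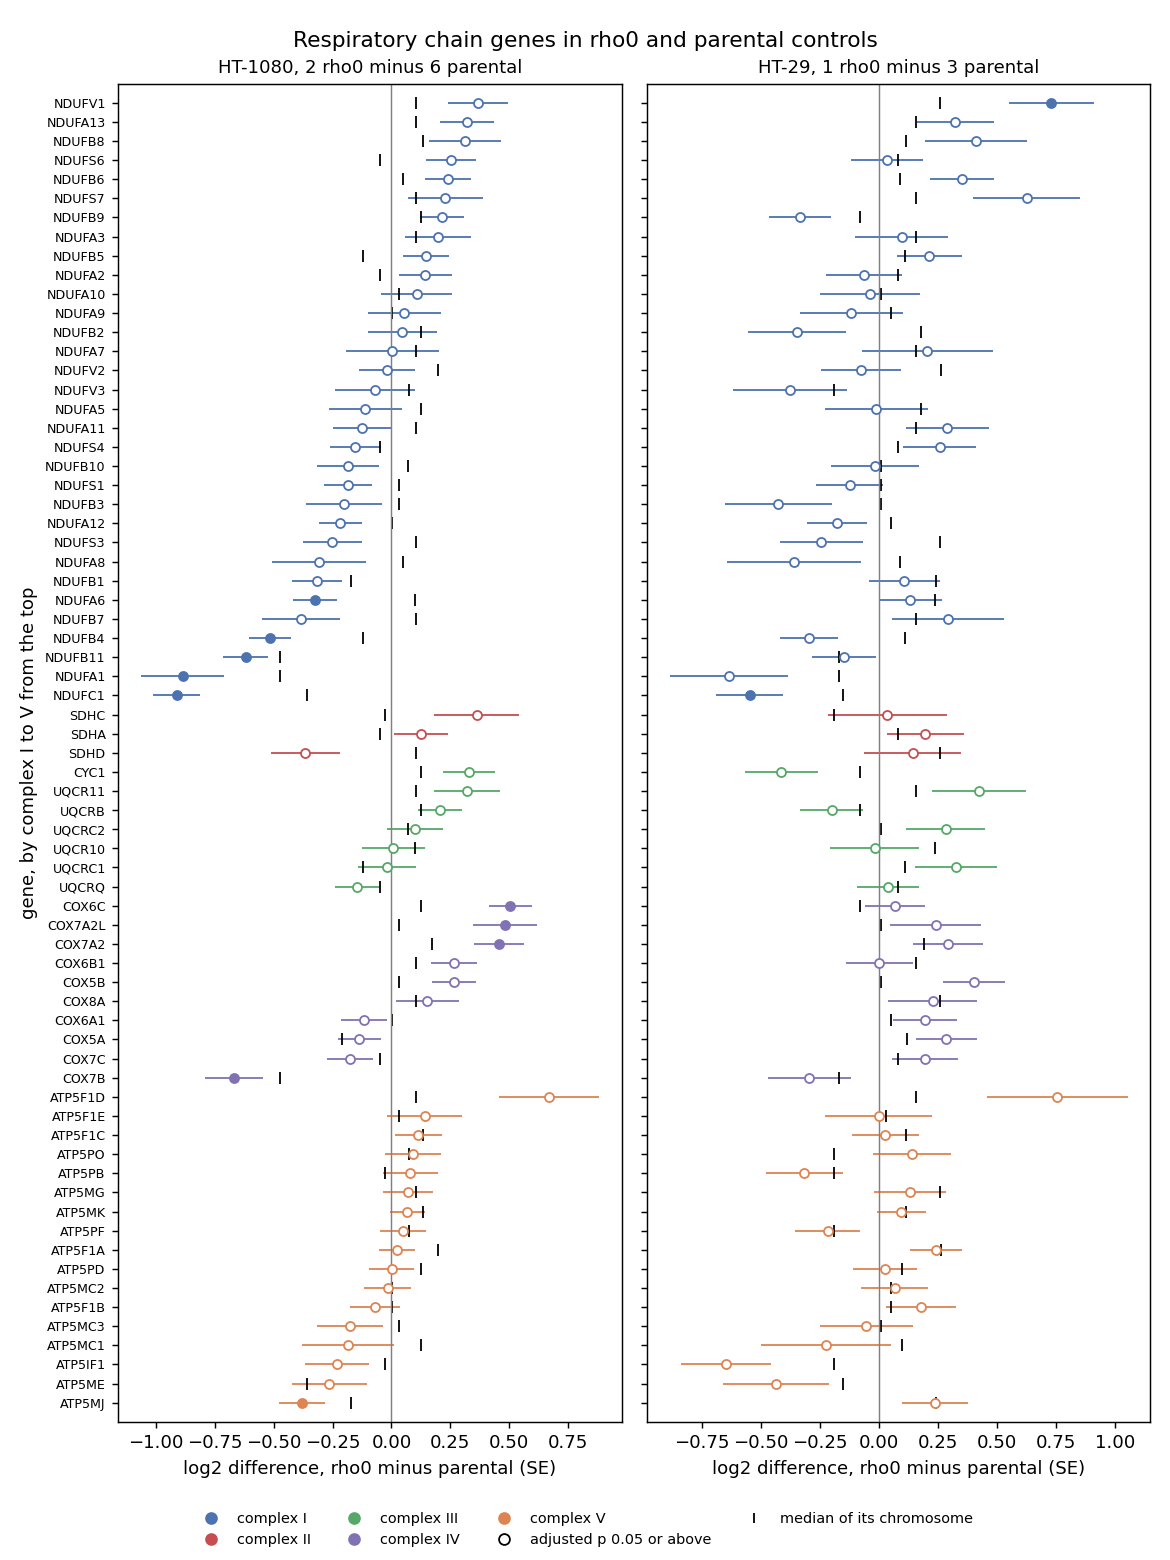
Log2 difference, rho0 minus parental controls, of 69 nuclear-coded respiratory chain and ATP synthase genes in HT-1080 (left, 2 and 6 arrays) and HT-29 (right, 1 and 3 arrays). Points are genes coloured by complex, bars are standard errors, filled points have an adjusted p under 0.05 and black ticks are the median of each gene's chromosome; in HT-1080 the 7 lower genes include all 3 on the X chromosome, whose median was -0.47.

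In HT-29, 2 of the 69 genes passed the test, where 7.99% of all genes did (3.99% higher and 3.99% lower), with 1 rho0 array assumed to vary like the replicated groups. NDUFC1 was at 1759 in HT-29 rho0, against 2360.1, 2779.6 and 2608 in HT-29 (log2 difference -0.55, SE 0.14, adjusted p = 0.0289). It was thus lower in both rho0 lines. Chromosome 4, which holds NDUFC1, also had a median below 0 in HT-29 rho0 (-0.15). NDUFV1, which carries the site where NADH is oxidised, was at 3357 in HT-29 rho0, against 1865, 2056 and 2159.5 (0.73, SE 0.18, adjusted p = 0.026). The number called was 1 to 5 when 1 HT-29 control was left out (1 without replicate 1, 5 without replicate 2 and 4 without replicate 3). As deposited, 8 were called and all were lower, where 2.24% of all genes were higher and 8.61% lower. The medians were then -0.18 for the 69 genes and -0.13 for all genes. With chromosome medians taken off none was called. After quantile normalization 2 were higher and 1 lower, where 3.25% of all genes were higher and 3.87% lower. A test of the rho0 difference between the lines, in which 5.67% of all genes were called (2.56% higher and 3.12% lower), picked 2 genes. CYC1, the cytochrome c1 of complex III, had 3386 and 3518 in HT-1080 rho0, against 2335 to 3143 in HT-1080, and 3041 in HT-29 rho0, against 3671 to 4311 in HT-29 (difference between lines 0.74, SE 0.19, adjusted p = 0.0372). ATP5MJ differed the other way (-0.62, SE 0.17, adjusted p = 0.0483), and a dimmer probe set of that gene had another direction in HT-29. As deposited 2 genes were called in this test, both higher, where 2.65% of all genes were higher and 2.53% lower. After quantile normalization 1 was called, which was lower, where 2.55% of all genes were higher and 2.71% lower.

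Under 2DG alone, 1 of the 69 genes rose and 6 fell in HT-1080 against own controls (n = 3 pairs), where 8.34% of all genes were called (4.92% higher and 3.41% lower). The median change was -0.07 for the 69 genes and 0.02 for all genes. In bulk cultures, less RNA of a gene per cell and a change in the mix of cells cannot be told apart. The 6 that fell were 3 complex I genes and 3 complex V genes. NDUFV2, an iron-sulphur subunit of the electron input arm, had 950.3, 861 and 959 with 2DG, against 1589, 1451 and 1368 in controls (log2 change -0.67, SE 0.12, adjusted p = 0.00773). ATP5MC3, a subunit c gene, had 2551, 2805 and 3334, against 3848, 4344 and 4184 (-0.52, SE 0.10, adjusted p = 0.0123). In both genes every 2DG array lay below every own control.

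ATP5IF1, the inhibitor protein of the ATP synthase, had 731, 540.0 and 569.9 with 2DG, against 971, 957 and 836 (log2 change -0.59, SE 0.13, adjusted p = 0.0213). NDUFB10, an accessory subunit of the membrane arm, had 1336, 1397 and 1341, against 1859, 2137 and 1817 (-0.51, SE 0.12, adjusted p = 0.0261). Here too the groups did not overlap. NDUFA7 (-0.70, SE 0.18, adjusted p = 0.0321) and ATP5F1C, the central stalk subunit gamma (-0.33, SE 0.09, adjusted p = 0.0451), also fell. A second, dim probe set of NDUFA7 moved the opposite way. The gene that rose was COX7A2L, with 1855, 1669 and 1532 under 2DG, against 1412, 1169 and 1014 in controls (0.50, SE 0.11, adjusted p = 0.0171). These calls rest on few arrays: with any 1 array left out 0 to 2 genes were called, although a fit to HT-1080 arrays alone called 17 (2 higher, 15 lower).

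Under glucose starvation alone, HT-1080 had 1 gene higher and 5 lower (n = 2 pairs), where 9.47% of all genes were called (4.36% higher and 5.1% lower). SDHA, the flavoprotein of complex II that oxidises succinate, had 410.3 and 365 with GS, against 783 and 707 in controls (log2 change -0.93, SE 0.16, adjusted p = 0.00752). This was the steepest fall among the 69 genes in that comparison. NDUFB10 had 1227 and 1290.0, against 1844 and 2086 (-0.64, SE 0.15, adjusted p = 0.0233). ATP5IF1 had 668 and 677, against 989.5 and 1107 (-0.63, SE 0.16, adjusted p = 0.034). NDUFS3, a core subunit of complex I, had 1084 and 1248, against 1584 and 1914 (-0.58, SE 0.15, adjusted p = 0.0379). The fifth was NDUFV2 (-0.57, SE 0.15, adjusted p = 0.0337). For each of the genes whose arrays are given, both starved arrays lay below both controls. COX7A2L rose again, with 1682 and 2387, against 1148 and 1361 (0.68, SE 0.13, adjusted p = 0.0117). Leaving out any 1 of the 4 arrays left none called, and a fit to HT-1080 arrays alone called 14 (3 higher, 11 lower).

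HT-29 under glucose starvation alone had 1 gene higher and 17 lower (n = 3 pairs), where 11.7% of all genes were called higher and 15.5% lower, 27.2% together. 10 of the 17 were complex I genes, 3 complex V, 2 complex III and 1 each complexes II and IV. NDUFB10 had 1541, 816 and 1865 with GS, against 2237, 1735 and 2641 in their own controls (log2 change -0.71, SE 0.12, adjusted p = 0.00262). ATP5MC1 had 979.9, 472 and 1810.1, against 1713, 1174 and 1961 (-0.74, SE 0.19, adjusted p = 0.0137). Each starved array was below its own control in both genes, though the groups overlapped, and replicate 2 was the lowest. NDUFS3 fell without overlap, with 1058, 1052 and 1404, against 1654, 1854 and 1605 (-0.55, SE 0.13, adjusted p = 0.00932). NDUFV2 was among the lower genes here too (-0.47). SDHA had 819, 866 and 1225, against 1244, 1437 and 1389 (-0.50, SE 0.13, adjusted p = 0.0179). In complex IV, COX6B1, which faces the intermembrane space, fell by 0.32 on the log2 scale (SE 0.09, adjusted p = 0.0274). NDUFS1, a core subunit that carries iron-sulphur clusters, rose with 1295, 1136 and 1071, against 868.5, 877 and 907 (0.39, SE 0.11, adjusted p = 0.0243).

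The 3 HT-29 arrays were unequal. The median change of the 69 genes was -0.03 on replicate 1, -0.43 on replicate 2 and -0.08 on replicate 3, the 14 h culture. Without replicate 1 or replicate 2, or the control of either, 2 genes were called, and a fit to HT-29 arrays alone called 1. The GS response of HT-1080 less that of HT-29 was called in 0 of the 69 genes by limma, where 0.569% of all genes were called (0.166% higher and 0.403% lower). At an unadjusted p under 0.05, 2 of the 69 were higher and 2 lower in that test. TM alone, with 1 array, gave 0 calls among the 69 genes and 0% among all genes, with 1 higher and 1 lower at an unadjusted p under 0.05.

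**Figure D2:**
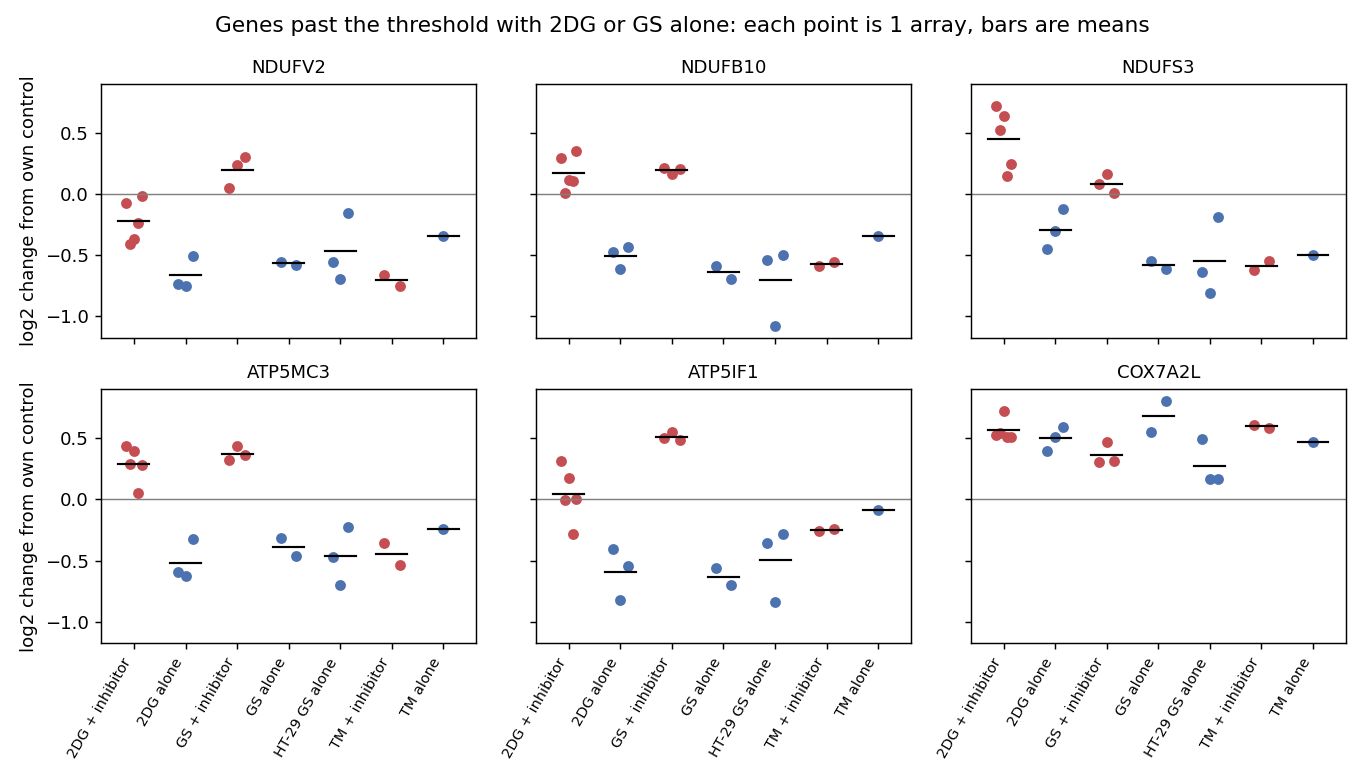
Log2 change from own control of NDUFV2, NDUFB10, NDUFS3, ATP5MC3, ATP5IF1 and COX7A2L, 1 panel per gene. Points are arrays, grouped by stress with a respiratory inhibitor left of the same stress alone, and bars are means. COX7A2L lies above 0 in every group. NDUFV2, NDUFB10, NDUFS3, ATP5MC3 and ATP5IF1 all lie below 0 under 2DG or GS alone.

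Most of these genes had higher scaled signals under 2DG when a respiratory inhibitor was present. With the 5 arrays of Met, Bu, Phen, Rot and AA pooled against the 3 of 2DG alone, each relative to its own control, 51 of the 69 genes were higher and 0 lower by limma, with 1 lower at an unadjusted p under 0.05. The background was 12.8% of all genes higher and 21.8% lower, 34.6% together. The median difference was 0.52 for the 69 genes and -0.12 for all genes. By complex, 21 of 32 complex I genes, 1 of 3 complex II, 4 of 7 complex III, 9 of 10 complex IV and 16 of 17 complex V genes were higher, with medians of 0.52, 0.21, 0.38, 0.57 and 0.59 in that order. Cytosolic ribosomal protein genes, another set with bright probe sets, were higher in 50 of 55, with a median of 0.47, so the count is not particular to mitochondrial genes.

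These counts depend on the scaling. As deposited, without rescaling, 16 of the 69 genes were higher and 8 lower, where 3.24% of all genes were higher and 41% lower. The median was then 0.14, against -0.49 for all genes. After quantile normalization 18 were higher and 2 lower, where 11.2% of all genes were higher and 16.9% lower. The median was then 0.17, against -0.04 for all genes. Under each of these 3 scalings the median of the 69 genes lay above that of all genes. Without 2DG replicate 2, 22 of the 69 were called. With the 3 biguanides only, 37 were called, and with Rot and AA only, 44.

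ATP5MC3 had 5186, 4675, 5023, 4511 and 5284 with 2DG and Met, Bu, Phen, Rot and AA, against 2551, 2805 and 3334 with 2DG alone (log2 difference 0.79, SE 0.11, adjusted p = 6.76e-05). COX6B1 had 4853, 4301, 4649, 3999.8 and 5098, against 2491, 2626 and 2716 (0.76, SE 0.11, adjusted p = 8.65e-05). NDUFA2, an accessory subunit of the matrix arm, had 2582, 2403, 2384, 2375 and 2749.8, against 1382, 1457 and 1639 (0.77, SE 0.12, adjusted p = 0.000135). In these 3 genes all inhibitor arrays lay above all arrays of 2DG alone. UQCR10, a small complex III subunit, had 3609, 3042, 3205, 3033 and 4778, against 1978, 2211 and 2161 (0.89, SE 0.17, adjusted p = 0.000531). SDHD, a membrane anchor of complex II, had 1672, 2294, 1936, 1978 and 2335, against 1569, 1305 and 1583 (0.52, SE 0.14, adjusted p = 0.00844). NDUFA7 had the largest difference of the 69 genes, with 276, 307, 276, 209 and 238, against 191, 114 and 125 (0.97, SE 0.19, adjusted p = 0.000889). The groups did not overlap for these genes either.

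Of the 5 core subunits of complex I with a usable probe set, NDUFS3 and NDUFV2 were higher, while NDUFV1 (-0.04), NDUFS7 (-0.00) and NDUFS1 (-0.03) did not pass the test, and the median of the 5 was -0.00. Of the 27 accessory subunits 19 were higher, with a median of 0.54. The other complex members that stayed near 0 without passing the test included the core protein UQCRC1 (-0.01) and CYC1 (-0.08) of complex III, SDHA (-0.12) and COX7A2L (0.04). NDUFA13, an accessory subunit also known as GRIM-19, was the lowest at -0.32 (SE 0.14, adjusted p = 0.0868).

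With GS, too, most of the genes had higher scaled signals when an inhibitor was present. With rotenone and antimycin A pooled against GS alone (n = 2 and 2), 42 of the 69 genes were higher and 1 lower, where 11.2% of all genes were higher and 13.5% lower, 24.7% together. The median difference was 0.61 for the 69 genes, -0.03 for all genes and 0.54 for ribosomal protein genes (48 of 55 higher). By complex, 18 of 32 genes of complex I, 1 of 3 of complex II (SDHD, 0.48, adjusted p = 0.0432), 3 of 7 of complex III, 8 of 10 of complex IV and 12 of 17 of complex V were higher. As deposited, 24 were higher and 6 lower, where 5.07% of all genes were higher and 28.4% lower. The median was then 0.23, against -0.39 for all genes. After quantile normalization 30 were higher and 2 lower, where 10.6% of all genes were higher and 13.4% lower. The median was then 0.35, against -0.06 for all genes. Without GS replicate 2, 3 genes were called. The array with antimycin A included floating cells, and with the rotenone array that also included them in place of the other, 44 were called.

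NDUFB3, a membrane arm subunit of complex I, had 3536 and 3177 with GS and rotenone or antimycin A, against 1203 and 1307 with GS alone (log2 difference 1.27, SE 0.17, adjusted p = 5.69e-05). UQCRB, the ubiquinone-binding protein of complex III, had 7963 and 9068, against 3889.5 and 4016 (1.08, SE 0.13, adjusted p = 2.4e-05). COX7B had 6562 and 6935, against 3445 and 3239 (1.05, SE 0.12, adjusted p = 2.55e-05). The inhibitor arrays were above the GS arrays without overlap in all 3. ATP5IF1 had 1567 and 1554, against 668 and 677 (1.16, SE 0.18, adjusted p = 0.000219), and NDUFA1 had 5113 and 5601, against 2096 and 2432 (1.10, SE 0.19, adjusted p = 0.000537). The 1 lower gene was COX7A2L, with 1687 and 1697, against 1682 and 2387 (-0.43, SE 0.14, adjusted p = 0.0258), where the groups overlapped before own controls were taken into account. Of the core subunits of complex I, NDUFV1, NDUFS1 and NDUFS7 were at -0.24, -0.23 and -0.23 without passing the test, and the accessory subunits had a median of 0.63 (16 of 27 higher).

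With TM the inhibitors were followed by no call: 0 of the 69 genes passed by limma (n = 2 and 1), with 0 higher and 1 lower at an unadjusted p under 0.05, where 0.56% of all genes were called. The median difference was 0.02 for the 69 genes and 0.00 for all genes. On simulated data 12% of genes given a log2 difference of 1.0 were called in this comparison, against 44% in that of the inhibitors with 2DG. Those genes were drawn from all tested genes, most of them dimmer, so the shares do not give the recovery for the 69. The test of the inhibitor difference under 2DG less that under TM was called in 8 of the 69 genes, all higher, where 4.6% of all genes were called. NDUFA1 (1.01, SE 0.27, adjusted p = 0.0401), ATP5MC3 (1.00, SE 0.19, adjusted p = 0.0113) and NDUFB10 (0.97, SE 0.22, adjusted p = 0.0217) differed most. Without 2DG replicate 2 or without TM and antimycin A the number was 0, and without TM and rotenone it was 21. As deposited 1 gene was called, where 0.495% of all genes were higher and 8.38% lower. After quantile normalization 3 were called, where 0.991% of all genes were higher and 2.02% lower.

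The single compounds with 2DG are set beside each other as changes from own control, without comparison, since their doses differ. Met, Bu and Phen share 1 control, as do Rot and AA, and each is 1 array. With Met 27 of the 69 genes were higher (of all genes 21% were called, 7.03% higher and 14% lower), with Bu 15 (19.7%, 6.52% and 13.2%) and with Phen 20 (22.4%, 7.47% and 14.9%). With Rot 6 were higher (10.1%, 3.44% and 6.66%) and with AA 35 (16.9%, 5.28% and 11.6%). No gene was lower in any of the 5, where limma at an unadjusted p under 0.05 gave 0 or 1. Calls come from the fit, in which a control shared with a replicated group is pooled, while medians and gene values by array are plain differences from the own control. The median differences were 0.47 with Met, 0.33 with Bu, 0.39 with Phen, 0.21 with Rot and 0.48 with AA, and 0.00, -0.03, 0.02, -0.11 and -0.03 as deposited. COX6B1 changed by 0.88 with Met, 0.71 with Bu, 0.82 with Phen, 0.45 with Rot and 0.80 with AA. UQCR10 changed by 0.78, 0.53, 0.61, 0.10 and 0.75 in that order. NDUFS3 changed by 0.72, 0.52, 0.64, 0.14 and 0.24. Rot was the lowest of the 5 values in each of the 3 genes. The calls against own controls depend on the scaling. Summed over the 21 treated groups there were 258 higher and 29 lower, but 34 higher and 72 lower as deposited and 23 higher and 43 lower after quantile normalization.

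Versipelostatin was measured with 3 stress and cell combinations at 3 µM. With 2DG in HT-1080, 15 of the 69 genes were higher (of all genes 10.7% were called, 3.59% higher and 7.14% lower), with GS in HT-1080 19 (12.3%, 3.61% and 8.65%) and with GS in HT-29 29 (28.6%, 9.86% and 18.7%), and 0 lower by limma in each. At an unadjusted p under 0.05, 1, 0 and 1 were lower in that order. The median differences from own control were 0.39, 0.34 and 0.43 on the rescaled arrays, and 0.00, -0.11 and -0.07 as deposited. With 2DG the largest differences were those of NDUFA1 (0.92), COX7B (0.87) and UQCRB (0.86). With GS in HT-1080 they were those of ATP5F1E, the epsilon subunit (0.77), COX8A (0.69) and COX6B1 (0.67). With GS in HT-29 they were those of NDUFS7 (0.98), COX5B (0.93) and ATP5F1E (0.89).

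GS with AA gave 24 genes higher (6.09% of all genes called, 3.27% higher and 2.82% lower) and GS with Rot 21 (7.81%, 3.1% and 4.71%), while the array of GS with Rot that included floating cells gave 28 (9.51%, 4.3% and 5.21%). With TM, Rot gave 0 calls among the 69 genes (2.24% of all genes, 0.998% higher and 1.24% lower), with 4 higher and 5 lower at an unadjusted p under 0.05, and AA gave 1, a fall of NDUFV2 (fitted change -0.74, SE 0.19, adjusted p = 0.0357; of all genes 9.6%, 3.87% higher and 5.73% lower). These 5 groups share 1 control, which is also that of GS replicate 2 and of TM alone.

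In HT-1080 rho0 cells, 2DG gave 4 genes higher than in the rho0 control (9.8% of all genes called, 3% higher and 6.8% lower): ATP5F1E (0.60), ATP5MC2 (0.55), UQCRB (0.53) and COX8A (0.51). GS gave 12 higher (4.48%, 1.67% and 2.81%), led by ATP5MJ (0.89), UQCRB (0.88), ATP5F1E (0.88), ATP5ME (0.87) and COX7B (0.83). TM gave 0 (0.035%), with 1 higher at an unadjusted p under 0.05, and GS in HT-29 rho0 also gave 0 (0.622%), with 1 higher. The median changes were 0.19, 0.44, -0.02 and 0.05 in that order, and -0.09, 0.07, -0.08 and -0.13 as deposited.

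Tests of the rho0 response less the parental response were few in calls. Under 2DG, ATP5MC3 alone was called (0.68, SE 0.20, adjusted p = 0.0457; 5.88% of all genes), and the number was 0 without 2DG replicate 2. As deposited and after quantile normalization the 1 gene called was lower instead of higher. Of all genes 0.716% were higher and 7.55% lower as deposited, and 1.51% and 3.67% after quantile normalization. Under GS in HT-1080, 5 genes were called, all higher, where 1.59% of all genes were. They were NDUFB3 (1.23, SE 0.26, adjusted p = 0.0267), ATP5MJ (1.04, SE 0.22, adjusted p = 0.0281), NDUFB10 (0.98, SE 0.25, adjusted p = 0.0497), COX7B (0.92, SE 0.19, adjusted p = 0.0267) and UQCRB (0.87, SE 0.20, adjusted p = 0.0318). Leaving out any 1 array of that comparison left 0. The median difference was 0.50 for the 69 genes and -0.02 for all genes. Under GS in HT-29 (1.39% of all genes) and TM in HT-1080 (0%), 0 of the 69 were called by limma, with 8 higher and 0 lower, and with 0 in either direction, at an unadjusted p under 0.05.

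Across the 14 cultures under 2DG or GS that also had a compound or lacked mtDNA, the order of the complexes was compared array by array. The median change of complex IV was the highest of the 5 complexes on 14 of 14 arrays (0.16 to 0.74) and that of complex II, 3 genes, the lowest on 14 of 14 (-0.29 to 0.18). On most of these arrays the complex II median was the value of SDHC, whose probe sets differ. For inhibitors with 2DG against 2DG alone the SDHC probe set used had 0.31, and the next brightest had -0.23, 0.57 and 0.33. The part of this choice of probe set in the order was not tested. Complex I ranged from -0.01 to 0.49, complex III from 0.02 to 0.62 and complex V from 0.06 to 0.50. Cytosolic ribosomal protein genes ran from 0.24 to 0.60 on the same arrays, overlapping complex IV. Complex II had the lowest median signal in every control, while complex V, not complex IV, had the highest in HT-1080 controls. The part of signal level in the order of the complexes was not tested. As deposited, complex IV was again highest and complex II lowest on 14 of 14, but complex IV then ran from -0.02 to 0.29, complex II from -0.69 to -0.20, complex I from -0.20 to 0.04, complex III from -0.16 to 0.19 and complex V from -0.12 to 0.10. After quantile normalization complex IV was highest on 13 and complex II lowest on 10 of the 14. Of the 69 genes, 43 to 64 were above their own control on these arrays, but 14 to 40 as deposited and 26 to 54 after quantile normalization. Over all 26 treated arrays complex IV was highest on 23 and complex II lowest on 21, and after quantile normalization on 22 and 16. The arrays share controls, so their number is no count of independent cultures.

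**Figure D3:**
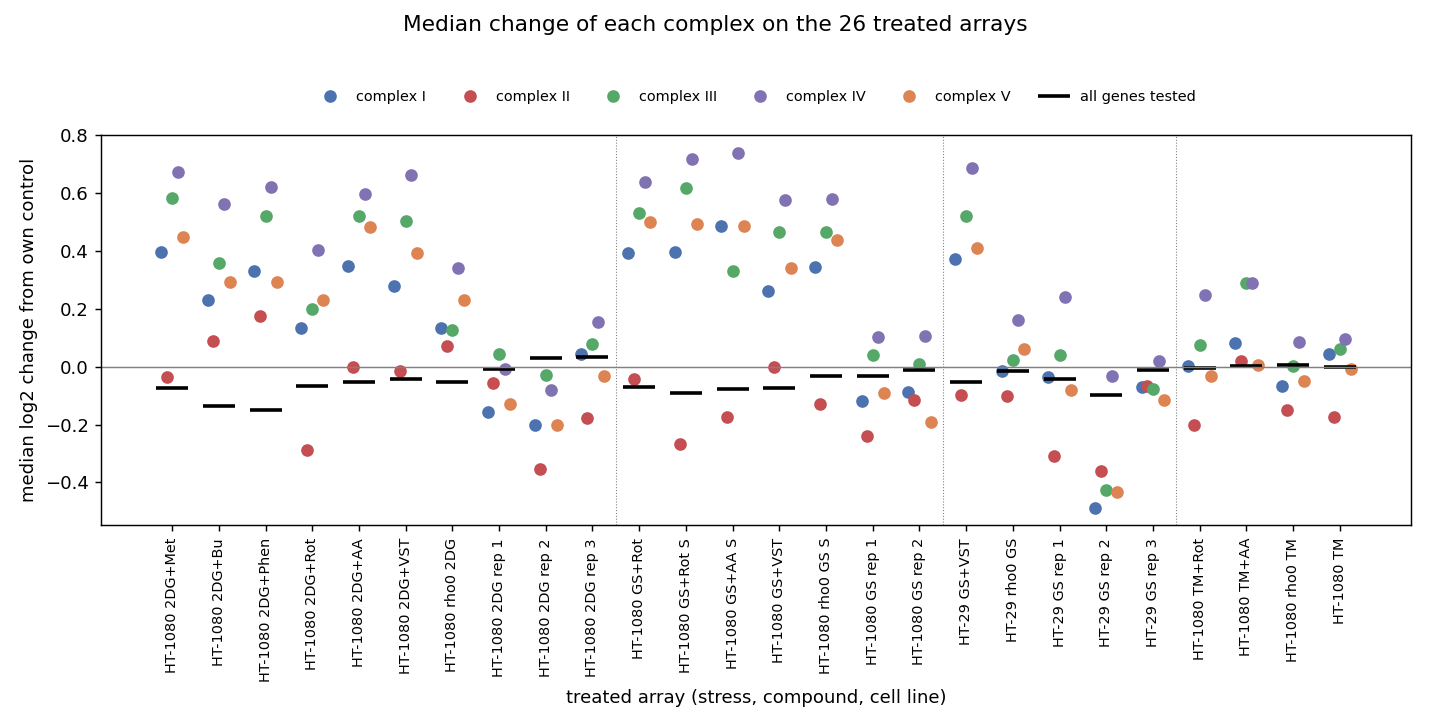
Median log2 change from own control of complexes I to V (coloured points) and of all tested genes (black bars) on each of the 26 treated arrays. Arrays are grouped by stress and line, with compound and rho0 arrays left of stress alone; complex IV is the highest of the 5 points on 23 arrays and complex II the lowest on 21.

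Across all 26 treated arrays, COX7A2L was above its own control on 26 and SDHA below on 26. The change of COX7A2L ran from 0.17 to 0.81 with a median of 0.51. That of SDHA ran from -0.94 to -0.17 with a median of -0.49. Of 11418 genes with a value on every array, 116 (1.02%) were above on all 26 and 219 (1.92%) below on all 26. Such genes were thus about as frequent in this group as among all genes. COX7A2L was above on 24 of 26 as deposited and on 26 after quantile normalization, and SDHA was below on 26 under both. In HT-29 the change of COX7A2L was 0.66 under GS with versipelostatin, and 0.49, 0.17 and 0.17 under GS alone. It was 0.20 in HT-29 rho0 with GS. SDHA changed most in HT-1080 under GS alone, with -0.92 and -0.94, against -0.57 with rotenone and -0.48 with antimycin A. The promoters of these 2 genes are printed above. The SDHA probe set is of a kind that may also match near-identical sequences. ATP5MC2 and COX7A2 were above their own control on 25 of 26 arrays.

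**Figure D4:**
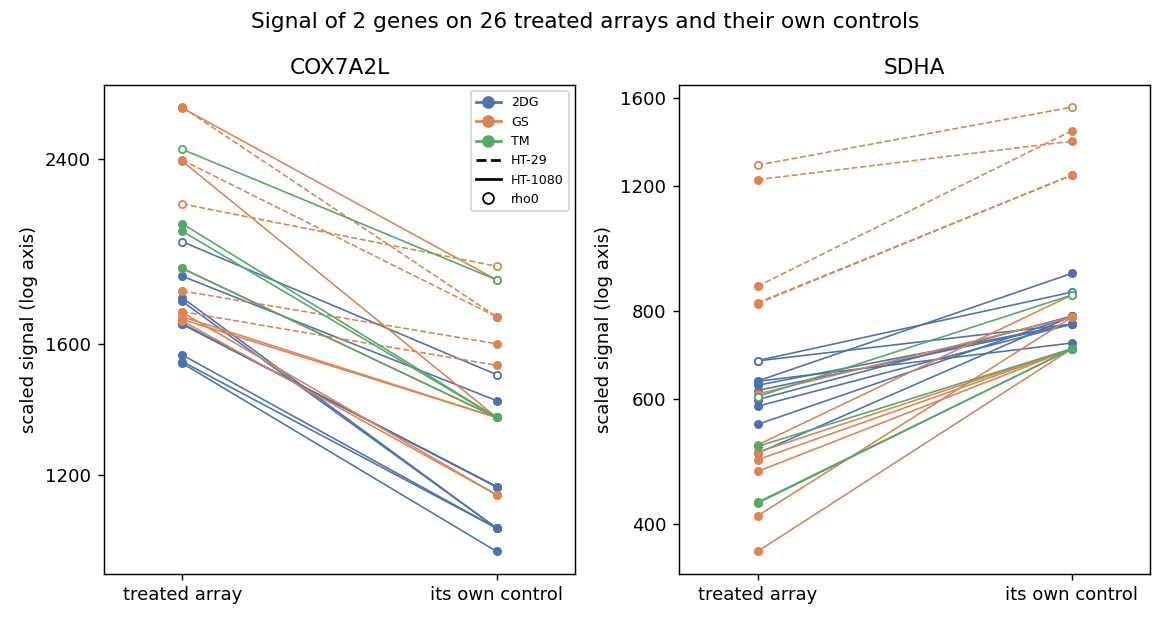
Scaled signal (log axis) of COX7A2L and SDHA on each treated array, joined by a line to its own control. Colour gives the stress, dashed lines HT-29 and open points rho0 cells; all 26 lines run upward to the treated array for COX7A2L and downward for SDHA.

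The other genes of the pathway were read from lists of assembly factors, regulators and subunits outside the symbol patterns. Of 50 tested assembly factors, 2 were higher and 3 lower in HT-1080 rho0 than in HT-1080 controls, where 6.15% of all genes were higher and 6.96% lower. As deposited 1 factor was higher and 8 lower, where 3.22% of all genes were higher and 14.7% lower. The genes called on the rescaled arrays included SDHAF3, needed for complex II (-0.79), and UQCC1, needed for complex III (0.71). In HT-29 rho0, 0 were higher and 5 lower, where 3.99% of all genes were called in each direction. As deposited 0 were higher and 11 lower, where 2.24% of all genes were higher and 8.61% lower. On the rescaled arrays the lower factors were led by COA7, a complex IV factor (-1.82, SE 0.25, adjusted p = 0.00105), and ATPAF1, a complex V factor (-1.37, SE 0.21, adjusted p = 0.00215). TFAM, which packages mtDNA and drives its transcription, was lower there (-0.84), the 1 call among 11 regulators. Chromosome medians differed in HT-29 rho0 too, for example -0.19 for chromosome 1 and 0.26 for chromosome 18. Of 1140 tested genes on chromosome 1, 174 were lower and 32 higher. On chromosome 8 (median -0.08) 35 of 406 were lower and 14 higher. Whether the calls among assembly factors and regulators in HT-29 rho0 follow shifts of whole chromosomes was not tested. In HT-29 under GS, 2 assembly factors were higher and 16 lower, where 11.7% of all genes were higher and 15.5% lower. Of these factors 1 and 10 act on complex IV, and UQCC3 (-1.22) and COA3 (-0.86) were lowest. As deposited 1 factor was higher and 15 lower, where 10.7% of all genes were higher and 15.3% lower.

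With inhibitors and 2DG, 14 assembly factors were higher and 4 lower than with 2DG alone, with a median difference of 0.25, against 0.52 for the subunits. The background was again 12.8% higher and 21.8% lower. As deposited the counts turned, with 3 factors higher and 16 lower and a median of -0.13, where 3.24% of all genes were higher and 41% lower. After quantile normalization 11 were higher and 4 lower, where 11.2% of all genes were higher and 16.9% lower. COX19, a copper-handling factor, was lowest (-1.76) and CMC2 highest (1.12). Of the 11 regulators 2 were higher, the 2 GABP subunits GABPB1 (1.27) and GABPA (1.17), and 4 lower, namely TFB2M (-1.16) and TFB1M (-0.88), known as mitochondrial transcription and ribosomal RNA factors, the mitochondrial RNA polymerase POLRMT (-0.97) and ESRRA (-0.87). As deposited and after quantile normalization 2 regulators were higher and 5 lower. With inhibitors and GS, 14 assembly factors were higher and 5 lower, where 11.2% of all genes were higher and 13.5% lower, with PET100 (1.41) and NUBPL (-1.44) at the ends, and TFB2M (-1.14) was the 1 regulator called. As deposited 4 factors were higher and 10 lower, where 5.07% of all genes were higher and 28.4% lower. After quantile normalization 15 were higher and 5 lower, where 10.6% of all genes were higher and 13.4% lower. Of the 5 subunits outside the patterns, 2 were higher in each case: COX4I1 (0.35) and CYCS, cytochrome c (0.35), with 2DG, and NDUFAB1 (0.57) and CYCS (0.52) with GS. With TM none of the 3 lists had a call, where 0.56% of all genes did.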

How the data were processed

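RNA from 38 cultures was measured on Affymetrix U133 Plus 2.0 arrays, and the groups follow the labels. The deposited values are linear signal intensities per probe set, made with MAS5 per the submitters' processing notes, and no step beyond that is given in the sources used here. Of 54675 probe sets, 41097 had 1 symbol in the platform annotation, 1801 had several and were not used to name genes, and 232 lacked a value on at least 1 array. Symbols were updated through RefSeq, and promoter sequences are from RefSeq (GRCh38.p14).

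Arrays were brought to the same mean after trimming 2% at each end, and 5% of that mean was added before log2 was taken. A probe set had to reach 40% of the trimmed mean on at least 2 arrays, and the brightest probe set stood for a gene. 11421 genes were tested, or 11418 where a comparison needed arrays with missing values. Tests were limma fits (limma 3.58.1, R 4.3.3) with an intensity trend and Benjamini-Hochberg adjustment over all tested genes at 0.05. Treated arrays were fitted with their own control, named in the labels, as a block. Control arrays were fitted separately. 18 of the 21 treated groups are 1 array, assumed to vary like the replicated groups. The labels do not say how cultures were kept apart, so a p-value here speaks only of the spread among these cultures, which may be technical, and the number of arrays limits precision.

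The genes, gene lists and tests were chosen with earlier results of these data known. Values by array are given for up to 6 genes per comparison, those with the largest changes past the threshold and the smallest adjusted p in each complex, and any gene of the group may be named. Alternatives were other offsets, filters, scalings and probe set rules, no intensity trend, no block, arrays of 1 line only, subsets of inhibitors, and each array left out in turn. On simulated data the fits called 13% of genes given a log2 difference of 0.5 and 51% of those given 1.0 for rho0 against parental HT-1080. For inhibitors with 2DG the shares were 10% and 44%. The changed genes, 100 per size, were drawn from all tested genes, most of them dimmer than the group described here. These shares therefore do not give the recovery for the group.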

Additional observations from a re-analysis of the deposited data

Results flagged for a closer look

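Of 69 genes searched, 2 had an HT-1080 control far from the other 5, in a search where chance flags about 1 in 20 groups. NDUFA6 was at 10.31 (log2 of signal plus offset) in replicate 3, where the other controls had a median of 10.40, and NDUFB8 was at 11.45 in replicate 6, where the others had 11.08.

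The rho0 difference was tested between the 2 lines, and 2 genes passed, where 2.56% of all genes were higher and 3.12% lower. The difference between lines was 0.74 for CYC1, whose signals lay above the parental controls in HT-1080 rho0 and below them in HT-29 rho0, and -0.62 for ATP5MJ, which ran the other way. A dimmer ATP5MJ probe set was lower in both rho0 lines (-0.71 in HT-1080 and -0.29 in HT-29).

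The difference made by an inhibitor was larger under 2DG than under TM in 8 genes, where 1.65% of all genes were higher and 2.94% lower. Fewer were called under the other scalings, as given above. On the log2 scale the inhibitor difference was larger by 1.01 for NDUFA1, 1.00 for ATP5MC3, 0.97 for NDUFB10, 0.88 for NDUFV2, 0.73 for NDUFA2, 0.72 for ATP5F1C, 0.69 for COX6B1 and 0.61 for ATP5F1B. The response of HT-1080 rho0 cells lay above that of parental cells by 0.68 for ATP5MC3 under 2DG. Under GS it lay above by 1.23 for NDUFB3, 1.04 for ATP5MJ, 0.98 for NDUFB10, 0.92 for COX7B and 0.87 for UQCRB. The GS array of rho0 cells included floating cells, while those of parental cells with GS alone did not. The part of floating cells in these differences was not tested.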

How the results depend on the processing

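The number of the 69 genes called is given under each alternative that moved it by over 1.5 times. Without the filter it was 1 for rho0 against parental HT-29, 0 for the rho0 difference between lines, 2 for the inhibitor difference under 2DG less TM, 0 and 1 for the rho0 responses to 2DG and GS, and 178 instead of 287 summed over the 21 groups against own control. A filter at the trimmed mean gave 13 for 2DG less TM. An offset of 2% gave 1 for the rho0 difference between lines. As deposited, the numbers were 20 for rho0 HT-1080, 8 for rho0 HT-29, 24 for inhibitors with 2DG, 1 for 2DG less TM and 106 over own controls. Quantile normalization gave 1 for the rho0 difference between lines, 20 for inhibitors with 2DG, 3 for 2DG less TM, 3 for the rho0 response to GS and 66 over own controls. The mean of all probe sets gave 2 for the rho0 response to 2DG and 1 for that of HT-29 to GS, and turned NDUFA7 under 2DG to 0.17. Without the intensity trend the numbers were 0 for rho0 HT-29, the difference between lines, 2DG less TM and both rho0 responses in HT-1080, 1 for 2DG, 1 for GS in HT-1080, 7 for GS in HT-29 and 53 over own controls. Without the own-control block, that is with no replicate block, they were 4 for 2DG, 9 for GS in HT-29, 2 for 2DG less TM and 8 for the rho0 response to GS. Arrays of 1 line only gave 17 for 2DG, 14 for GS in HT-1080, 1 for GS in HT-29, 16 for 2DG less TM and 9 for the rho0 response to GS, and the 14 h arrays gave 0 for GS in HT-29. Controls with Pt in their array names, or chromosome medians taken off, gave 0 for rho0 HT-29 and for the difference between lines, and the latter 5 for rho0 HT-1080. Leaving out 1 array gave 4 to 11 for rho0 HT-1080, 1 to 5 for rho0 HT-29, 0 to 3 for their difference, 0 to 2 for 2DG, 0 for GS in HT-1080, 2 to 26 for GS in HT-29 and 0 to 1 for the GS difference between lines. It gave 22 to 52 for inhibitors with 2DG, 3 to 40 with GS, 0 with TM, 0 to 21 for 2DG less TM, 0 to 1 for the rho0 response to 2DG, 0 for that to GS, 0 to 2 in HT-29 and 0 for that to TM. Of 940 recomputed values of single genes, 669 stayed on their side of the threshold, 270 fell below it and 1 turned. Dim probe sets, single arrays and shared controls limit what can be read.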

Other observations

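The 10 mtDNA-coded probe sets summed to 76630 to 92981 with 2DG and a respiratory inhibitor, against 59048 to 65171 with 2DG alone. With GS they summed to 51837 with rotenone, 40022 with rotenone including floating cells and 32351 with antimycin A, against 59623 to 69162 with GS alone. The probe sets did not all move together. That of ND2 had 9528, 11247 and 13534 in the same order, against 9264 and 10026 with GS alone. A probe set of the mtDNA-coded COX2 had 5227, 3131 and 1926, against 8212 and 10064. As deposited, the sums over the 10 probe sets with 2DG overlapped, at 65061 to 73199 with an inhibitor, against 61124 to 69882 with 2DG alone. With GS these sums were 43061 with rotenone, 32690.1 with rotenone including floating cells and 26123 with antimycin A, against 63445 to 74413 with GS alone. The median difference of the nuclear-coded subunits was 0.52 with 2DG and 0.61 with GS, and 0.14 and 0.23 as deposited. The GS array with antimycin A included floating cells, and their part in these sums was not tested.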
